A study of Homo sapiens with 4 samples.

Results

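The autophagy core genes described here are 10 genes, chosen by name from the 61541 gene rows of the count files: ULK1, BECN1, ATG5, ATG7, ATG16L1, MAP1LC3B, GABARAP, GABARAPL1, GABARAPL2 and TFEB. They were measured in RNA of H1299 cells, an established human lung carcinoma line, given either ginseng nanoparticles or, as control, phosphate-buffered saline (PBS), with 2 libraries per group. The labels give no dose, exposure time or plant part, and the word control also stands in the titles of the treated libraries, so groups follow the treatment label. All 4 libraries came from polyadenylated RNA of the same line grown in serum-containing medium, and nothing in the labels says that replicates were separate cultures, so p-values reflect library-to-library spread, possibly only technical. All 10 genes were found in every library and all 10 passed the filter on low counts.

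Autophagy encloses cytoplasm, damaged organelles or ingested material in a double membrane that fuses with the lysosome. ULK1 is the kinase that starts the process, BECN1 is a subunit of the lipid kinase complex that marks the growing membrane, and ATG7, ATG5 and ATG16L1 belong to the machinery that attaches small ubiquitin-like proteins of the ATG8 family to its lipids. MAP1LC3B, GABARAP, GABARAPL1 and GABARAPL2 encode such ATG8 proteins, and TFEB is a transcription factor of lysosomal and autophagy genes. Messenger RNA levels of these genes do not measure autophagic flux, which depends on protein modification and turnover.

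The ATG8 proteins are made as precursors that the ATG4 proteases trim behind a glycine, the residue that is then joined to lipid. The last 10 codons of the coding sequences, from GENCODE 29 transcripts on GRCh38, are shown because they set the 4 ATG8 members apart, with the last glycine codon in capitals and the stop codon at the end.
MAP1LC3B: gagacgttcGGGatgaaattgtcagtgtaa
GABARAP: tacagtgacgaaagtgtctacGGTctgtga
GABARAPL1: tacagtgatgagagtgtctatGGGaaatga
GABARAPL2: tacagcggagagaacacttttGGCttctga
In MAP1LC3B this glycine is codon 120 of 125, and 5 codons follow it. In the 3 GABARAP-type genes it is codon 116 of 117 and 1 codon follows. GABARAP and GABARAPL1 are the closest pair among the 4, with 76.8% identical bases over the 354 aligned coding bases including the stop codon, against 62.1% for GABARAPL1 with GABARAPL2 and 55.8% for GABARAPL1 with MAP1LC3B.

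GABARAPL1 was the only one of the 10 genes that passed the test, and it was higher with nanoparticles. Its level was 59.6 and 60.3 CPM (counts scaled to a common library size) with PBS and 71.8 and 66.7 CPM with nanoparticles. Both treated libraries lay above both controls, and the 2 treated libraries differed from each other more than the 2 controls did. The means were 59.9 ± 0.499 CPM with PBS and 69.3 ± 3.57 CPM with nanoparticles (SD, n = 2 per group). GABARAPL1 rose 1.16-fold, or by 0.21 on the log2 scale (SE 0.047, 95% interval 0.11 to 0.31; edgeR quasi-likelihood test over all genes, Benjamini-Hochberg adjusted p = 0.0183). Among the 15778 genes tested, 2.58% passed in either direction (1.75% of all tested genes higher, 0.83% lower), so a count of 1 in 10 here rests on a single gene. At an unadjusted p under 0.05, reached by 16.8% of all tested genes, the core genes counted 3. A higher level may stand for more RNA per cell or for more cells that make it, which bulk RNA cannot tell apart.

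The call for GABARAPL1 depended on the libraries and the test. Its adjusted p was 0.185 without nanoparticle replicate 1, 0.504 without PBS replicate 1 and 0.47 without PBS replicate 2 (edgeR), and no gene at all passed in the fits that left out a PBS library (1562 and 1672 genes at an unadjusted p under 0.05). It was 0.215 by DESeq2's Wald test and 0.544 with no filter on low counts, a setting in which no gene passed. The log2 fold change stayed above 0 in all 14 alternatives, between 0.15 and 0.26, and passed in 9 of them.

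**Figure D1:**
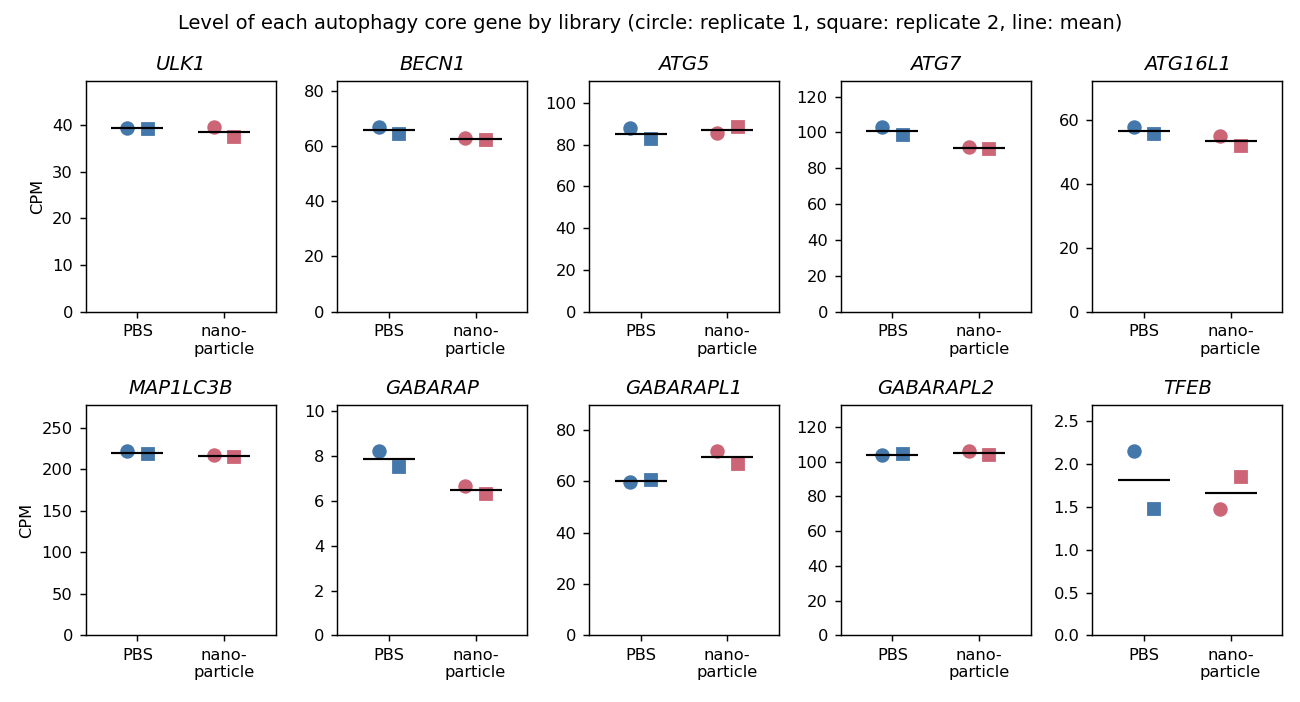
Level of each of the 10 genes in CPM (vertical axis, from 0, scaled per gene) for the PBS and nanoparticle libraries, with circles for replicate 1, squares for replicate 2 and a line at the mean of 2. Both treated libraries lie above both controls for GABARAPL1, at 71.8 and 66.7 CPM. They lie below both controls for ATG7, GABARAP, BECN1, ATG16L1 and MAP1LC3B.

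The other ATG8 members did not pass. MAP1LC3B, whose protein is the usual marker of autophagosomes, stood at 222 and 218 CPM with PBS and at 217 and 215 CPM with nanoparticles. The groups lay close together without overlap. The log2 fold change of MAP1LC3B was -0.028 with a 95% interval of -0.094 to 0.039. GABARAPL2, which encodes a protein also known from Golgi traffic, stood at 104.1 and 104.2 CPM with PBS and at 106.2 and 103.9 CPM with nanoparticles. Its groups overlapped, and its 95% interval on the log2 scale ran from -0.063 to 0.090. For both genes these intervals leave out a change as large as that of GABARAPL1, 0.21 on the log2 scale, in either direction. They rest on the spread between these libraries, possibly only technical, and may not cover spread between cultures.

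GABARAP had the lowest fold change of the 10. It stood at 8.22 and 7.51 CPM with PBS and at 6.68 and 6.30 CPM with nanoparticles, so that both treated libraries lay below both controls. On the log2 scale the change was -0.28 (SE 0.11, 95% interval -0.51 to -0.040; edgeR adjusted p = 0.214), and it did not pass in any of 14 alternatives. The counts behind it were small, 183 and 168 with PBS and 167 and 157 with nanoparticles. In GENCODE 29 a readthrough gene on the same strand, ENSG00000262526, shares 691 of the 1634 bases of the principal GABARAP transcript and 261 of its 351 coding bases before the stop codon. That gene had 0 counts in every library. The files list 4.78% to 4.81% of reads per library as ambiguous between genes, and whether reads of GABARAP are among them was not tested.

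Within the ATG8 family the share of GABARAPL1 was larger with nanoparticles, a value that does not depend on the scaling of libraries. The summed level of the 7 family genes, which also include MAP1LC3A, MAP1LC3B2 and MAP1LC3C, was 413 and 411 CPM with PBS and 422 and 412 CPM with nanoparticles. GABARAPL1 took 14.4% (95% Wilson interval 13.7 to 15.2) and 14.7% (14.0 to 15.4) of the family's counts with PBS. It took 17.0% (16.3 to 17.7) and 16.2% (15.5 to 16.9) with nanoparticles. The lowest treated interval began at 15.5%, above the highest control interval, which ended at 15.4%. These shares use the same GABARAPL1 counts as the test above, so their separation is not separate support. The share of GABARAP, whose exons overlap those of the readthrough gene, was 1.99% (1.72 to 2.30) and 1.83% (1.57 to 2.12) with PBS. With nanoparticles it was 1.58% (1.36 to 1.84) and 1.53% (1.31 to 1.79), and here the intervals of the groups overlapped. These intervals cover counting error only, and a two-sided exact permutation test between groups of 2, for which p = 0.333 is the smallest possible, gave that value for both shares.

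**Figure D2:**
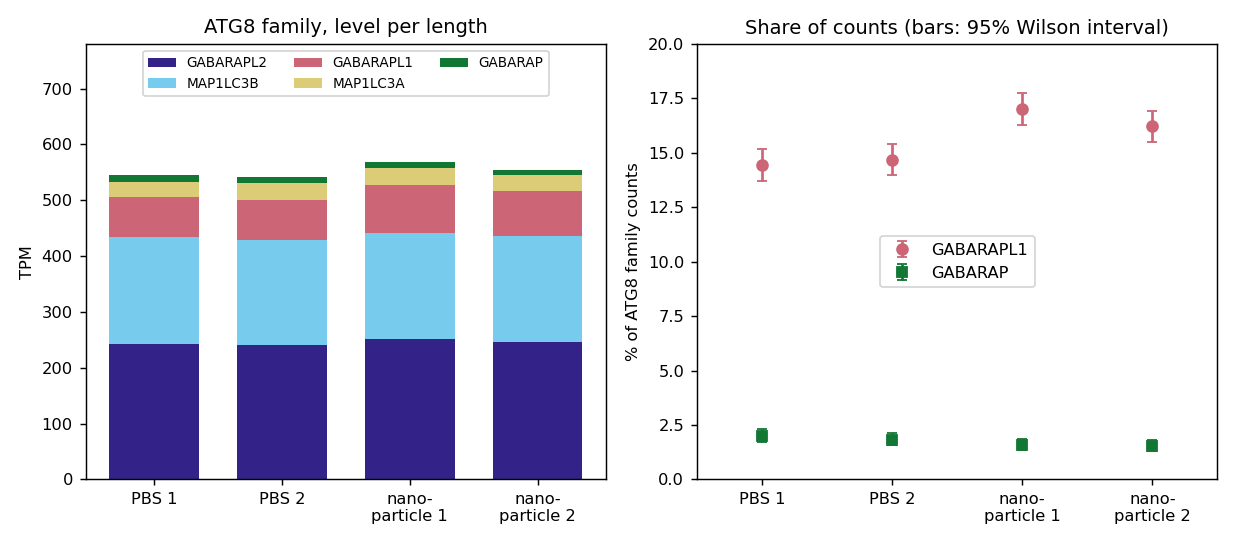
Left, stacked level of 5 ATG8 genes in TPM (counts divided by transcript length and scaled to the same total in each library) for each library, without MAP1LC3B2 and MAP1LC3C, which stayed below 3 TPM; right, share of the family's counts taken by GABARAPL1 and GABARAP with 95% Wilson intervals. The GABARAPL1 share is 14.4% and 14.7% with PBS and 17.0% and 16.2% with nanoparticles.

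Near-identical copies bear on how these counts can be read. The coding sequence of MAP1LC3B2 differs from that of MAP1LC3B at 2 of 378 bases, and MAP1LC3B2 had 12 and 4 counts with PBS and 18 and 10 with nanoparticles. Its log2 fold change of 0.64 had a standard error of 0.48 and did not pass (edgeR adjusted p = 0.549). The value rested on single libraries: it was 1.62 without PBS replicate 1, 0.056 without PBS replicate 2, 0.16 without nanoparticle replicate 1 and 0.99 without nanoparticle replicate 2. GABARAPL3 (ENSG00000238244), a pseudogene, is identical to the coding sequence of GABARAPL1 at 338 of 354 bases and had 1 count in one library and 0 in the other 3. A second row with the same symbol, ENSG00000279980, had 0 counts in every library. Reads not uniquely aligned made up 4.75% and 4.64% of reads with PBS and 4.51% and 3.51% with nanoparticles, lower in both treated libraries. Whether reads of MAP1LC3B and GABARAPL1 are among them was not tested. MAP1LC3C had 3 counts in each control and 1 and 0 in the treated libraries, and was removed by the low-count filter.

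Of the conjugation genes ATG7 came closest to the threshold. ATG7 encodes the E1-like enzyme that activates both ATG12 and the ATG8 proteins. It stood at 102.9 and 98.8 CPM with PBS and at 92.0 and 91.0 CPM with nanoparticles, with no overlap between the groups. The log2 fold change was -0.14, with a standard error of 0.039 and a 95% interval of -0.22 to -0.061 (edgeR adjusted p = 0.0576). It passed in 5 of 14 alternatives, among them removal of the trend with transcript length (log2 -0.17, edgeR adjusted p = 0.0323), the stricter filter on low counts (0.0339) and upper-quartile scaling (0.0339). It did not pass by DESeq2's Wald test, nor in any of the 4 fits that left out 1 library. Exons of ATG7 share 1596 of 8833 bases with VGLL4 on the opposite strand, and no source used here says whether reads were counted by strand. Exons of BECN1, MAP1LC3B, GABARAP, GABARAPL1, ATG2B, WDFY3 and SQSTM1 also overlap genes on the opposite strand. For SQSTM1 the overlap with MRNIP is 20.7% of exonic bases.

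ATG5, which joins ATG12 to form the conjugate that directs lipidation, stood at 87.8 and 82.8 CPM with PBS and at 85.7 and 88.4 CPM with nanoparticles. ATG16L1, the scaffold that brings this conjugate to the membrane, stood at 57.9 and 55.6 CPM with PBS and at 55.2 and 52.0 CPM with nanoparticles. The groups overlapped for ATG5 and lay close together without overlap for ATG16L1. Their 95% intervals on the log2 scale were -0.058 to 0.12 for ATG5 and -0.18 to 0.020 for ATG16L1, and neither passed (edgeR adjusted p = 0.793 and 0.423).

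Among the initiation genes ULK1 stood at 39.4 and 39.2 CPM with PBS and at 39.5 and 37.4 CPM with nanoparticles. BECN1 stood at 66.8 and 64.5 CPM with PBS and at 62.8 and 62.0 CPM with nanoparticles, lower in both treated libraries. The log2 fold changes were -0.030 (95% interval -0.14 to 0.083) for ULK1 and -0.073 (-0.16 to 0.020) for BECN1, and neither passed (edgeR adjusted p = 0.838 and 0.435). TFEB was scarce, with 48 and 33 counts in the controls and 37 and 46 after treatment, or 1.48 to 2.16 CPM. Its groups overlapped and its 95% interval of -0.62 to 0.36 on the log2 scale leaves room for changes in either direction larger than that of GABARAPL1.

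**Figure D3:**
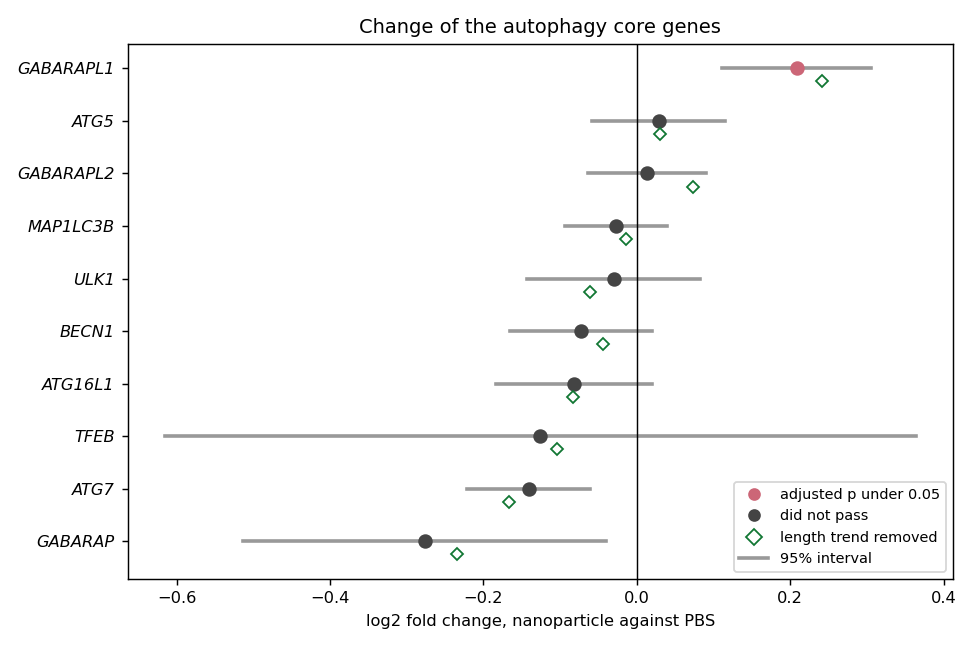
Log2 fold change of nanoparticle against PBS for the 10 genes (horizontal axis) with 95% intervals from edgeR; diamonds show the value with the trend of transcript length removed. GABARAPL1 lies at 0.21, the intervals of ATG7 (-0.22 to -0.061) and GABARAP (-0.51 to -0.040) lie below 0, and that of TFEB is the widest.

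As a group the 10 genes had a median log2 fold change of -0.051, with 3 above and 7 below 0, while the median over all tested genes was 0.00056. The groups did not overlap for 6 of the 10, of which 5 were lower and GABARAPL1 was higher. Over all tested genes 46.9% had groups without overlap, 23.7% higher and 23.2% lower. The median of the 10 stayed below 0 in the 13 alternatives that gave all of them a value, between -0.070 and -0.022, and was -0.031 for the 9 left at a minimum mean of 50 counts.

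Fold changes across the transcriptome went with transcript length in these libraries, with a Spearman correlation of 0.42 over 11080 genes above 5 CPM that share the same 4 libraries. The 2 members with the lowest fold changes, GABARAP and ATG7, have principal transcripts of 1634 and 4959 bases, and GABARAPL1 has one of 1957 bases. Once this length trend was taken out of every library, GABARAPL1 had a log2 fold change of 0.24 and passed (edgeR adjusted p = 0.00872). With the trend of GC content removed as well, it again had 0.24 (0.00532). GABARAPL2, the shortest of the 10 at 1002 bases, moved from 0.013 to 0.073 with the length trend removed and did not pass (0.386).

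**Figure D4:**
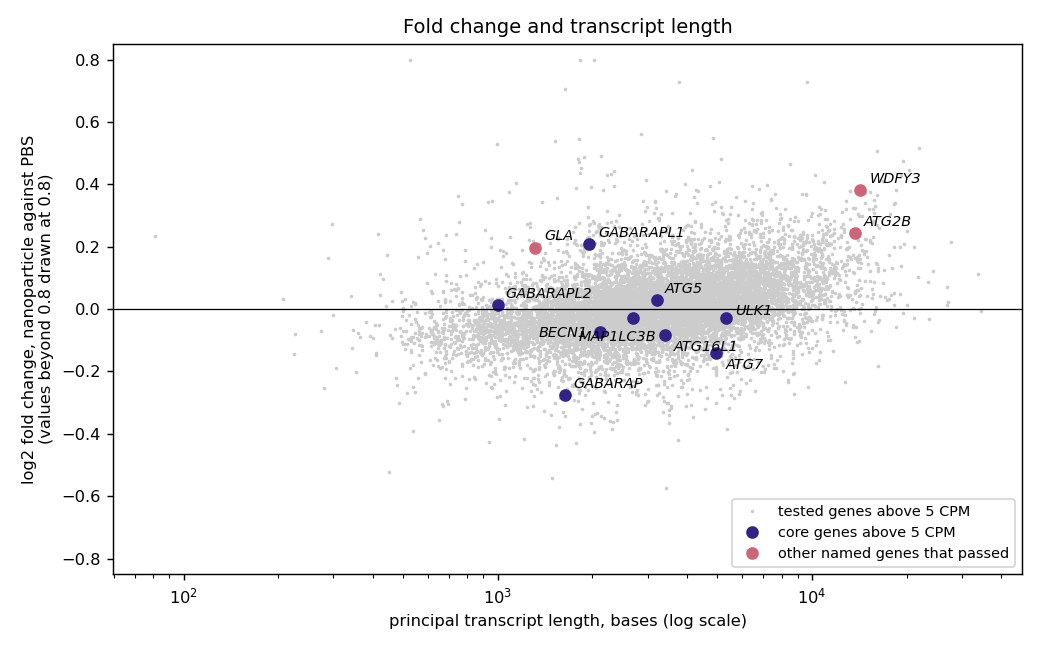
Log2 fold change (vertical axis) against the length of the principal transcript (horizontal axis, log scale) for tested genes above 5 CPM in grey, with 9 core genes (TFEB lies below 5 CPM) and 3 other named genes marked. GABARAPL1 and GLA, at 1957 and 1318 bases, lie at 0.21 and 0.20. WDFY3 and ATG2B, at 14247 and 13684 bases, lie where grey points also tend to be above 0.

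Levels of different genes can be compared only per length. On the TPM scale GABARAPL2 was the highest of the 10, at 242 and 241 with PBS and 251 and 246 with nanoparticles. MAP1LC3B followed at 188 to 193 TPM over the 4 libraries. GABARAPL1 (71.0 to 86.7 TPM) and BECN1 (69.7 to 73.8 TPM) overlapped in level. Below them, without overlap between neighbours, came ATG5 (59.7 to 65.2 TPM), ATG7 (43.5 to 48.4), ATG16L1 (36.2 to 39.6), ULK1 (16.7 to 17.6), GABARAP (9.15 to 11.7) and TFEB (1.45 to 2.14). The order depended on the length used: with the union of all exons MAP1LC3B came first and 5 of the 10 kept their rank. For GABARAP, 691 of the 1634 bases also lie in exons of the readthrough gene. Whether its level misses reads set aside as ambiguous was not tested.

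The promoter windows of GABARAPL1 and MAP1LC3B are shown because they were the only core genes in whose windows a match was found to any of the motifs searched. Windows run from 250 bases before to 50 bases after the start in RefSeq on GRCh38.p14, and the 10 genes have 13 of them. The motifs were the CLEAR element bound by TFEB (GT, CACGTG and AC in a row), the E-box core inside it (CACGTG), the antioxidant response core of NRF2 (TGACNNNGC), a forkhead motif (GTAAACA) and the cyclic AMP response element (TGACGTCA), the last added after the GABARAPL1 window had been read. Both strands were searched, and capitals mark a match.
GABARAPL1, chr12:10212627-10212926, plus strand: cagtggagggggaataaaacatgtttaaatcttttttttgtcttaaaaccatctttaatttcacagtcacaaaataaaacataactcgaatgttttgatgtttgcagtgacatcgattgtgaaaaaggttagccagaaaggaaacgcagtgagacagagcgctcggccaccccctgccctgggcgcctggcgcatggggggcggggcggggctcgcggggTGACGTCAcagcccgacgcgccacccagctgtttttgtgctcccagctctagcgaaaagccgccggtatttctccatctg
MAP1LC3B, chr16:87392086-87392385, plus strand: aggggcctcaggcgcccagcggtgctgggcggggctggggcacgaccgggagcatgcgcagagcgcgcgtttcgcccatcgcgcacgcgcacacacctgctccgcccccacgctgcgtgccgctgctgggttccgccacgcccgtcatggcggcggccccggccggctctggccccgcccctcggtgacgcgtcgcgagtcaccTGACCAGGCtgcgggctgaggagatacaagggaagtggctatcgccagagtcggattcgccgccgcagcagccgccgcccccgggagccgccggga
The GABARAPL1 window holds the cyclic AMP response element, found in 1.84% of 34943 promoter windows, and none of the other motifs searched. Because this element was added from that window, its match there was fixed in advance, and the 1.84% cannot be weighed against it. The MAP1LC3B window holds the antioxidant core, found in 13.3%. None of the 13 windows held a CLEAR element (0.352% of the 34943 windows), an E-box core (7.23%) or the forkhead motif (3.42%). These matches describe the letters of the windows only.

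The rest of the autophagy pathway was followed through 8 lists with 81 genes, of which 79 could be tested. Of these 79 genes 2 passed, both higher, against 2.58% of all tested genes, and the median log2 fold change was 0.014 with 45 above and 34 below 0. WDFY3, a very large scaffold protein that links protein aggregates to the autophagy machinery, stood at 21.6 and 20.6 CPM with PBS and at 26.7 and 28.3 CPM with nanoparticles. Both treated libraries lay above both controls, and WDFY3 rose by 0.38 on the log2 scale with a standard error of 0.068 (edgeR adjusted p = 0.00349). ATG2B, a lipid transfer protein that feeds the growing membrane, stood at 33.6 and 36.3 CPM with PBS and at 41.0 and 41.8 CPM with nanoparticles, and rose by 0.24 with a standard error of 0.056 (0.0231).

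Both genes have long transcripts, of 14247 bases for WDFY3 and 13684 for ATG2B, and their calls moved with the length trend. With that trend removed WDFY3 had a log2 fold change of 0.26 (edgeR adjusted p = 0.0541) and ATG2B one of 0.13 (0.308). With length and GC trends both removed WDFY3 passed (0.0399) and ATG2B did not (0.252). By DESeq2's Wald test neither passed (adjusted p = 0.0648 and 0.305). When 1 library was left out, WDFY3 passed only where that library was nanoparticle replicate 1, and ATG2B passed in none of the 4 fits. WDR45B, another protein of the growing membrane, named after its values were seen, passed in 5 of 14 alternatives, among them the length trend removed (log2 0.13, edgeR adjusted p = 0.0465), and not in the reported test (log2 0.12, 0.0693).

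In the initiation list, which holds the partners of ULK1 with AMPK and mTOR complex genes, none of 8 genes passed and 6 lay above 0. RPTOR, the mTOR complex scaffold, had the smallest p there, at 84.5 and 88.0 CPM with PBS against 99.8 and 91.2 CPM with nanoparticles (log2 0.15, SE 0.044, edgeR adjusted p = 0.0851). RPTOR passed in 2 of 14 alternatives, with a minimum mean of 50 counts (edgeR adjusted p = 0.0481) and with the replicate block (0.0287), and had 0.325 with the length trend removed. In the lipid kinase list of BECN1 partners none of 7 passed, with RUBCN, an inhibitor of that complex, having the smallest p (log2 0.092, edgeR adjusted p = 0.301). None of 9 conjugation enzymes and ATG4 proteases passed, and ATG16L2, a relative of ATG16L1, had the smallest p (log2 0.16, SE 0.12, edgeR adjusted p = 0.561). None of 14 fusion genes passed, where VPS33A of the tethering complexes had the smallest p (log2 0.066, adjusted p = 0.606). The fold changes of these 14 genes all lay between -0.051 and 0.066 on the log2 scale. Over these 4 lists 3 genes had an unadjusted p under 0.05 in edgeR, against 16.8% of all tested genes. The 3 were RB1CC1, PRKAA1 and RPTOR, all among the 8 initiation genes, and the difference between lists was not tested. The initiation list had a median transcript length of 6209 bases, against 2785 over all tested genes. With the length trend removed the log2 fold changes went from 0.094 to 0.045 for RB1CC1 and from 0.12 to 0.092 for PRKAA1. For RPTOR the value went from 0.15 to 0.10. RB1CC1 and PRKAA1 were named after their values were seen. DESeq2 and limma-voom called no gene in the 4 lists.

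Of 16 cargo receptor genes WDFY3 was the 1 that passed, and 9 lay below 0. SQSTM1, which encodes the receptor p62 and is also a target of NRF2, stood at 931 and 946 CPM with PBS and at 938 and 914 CPM with nanoparticles. Its groups overlapped, with a log2 fold change of -0.019 and a 95% interval of -0.068 to 0.029 (edgeR adjusted p = 0.735). In the list of TFEB relatives and regulators none of 14 tested genes passed in edgeR, DESeq2 or limma-voom, and 2 had an unadjusted p under 0.05 in edgeR, against 16.8% of all tested genes. FNIP1, a partner of folliculin in nutrient sensing at the lysosome, had the smallest p there, at 32.1 and 32.0 CPM with PBS against 35.9 and 36.7 CPM with nanoparticles (log2 0.18, SE 0.056, edgeR adjusted p = 0.0972).

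Genes regarded as targets of TFEB, mostly lysosomal enzymes and proton pump subunits, were counted as a further list. Of 26 tested genes 1 passed, GLA, against 2.58% of all tested genes, and the median log2 fold change was -0.011 with 10 above and 16 below 0. GLA, the lysosomal alpha-galactosidase, stood at 69.4 and 67.2 CPM with PBS and at 78.30 and 78.26 CPM with nanoparticles, and rose by 0.20 on the log2 scale with a standard error of 0.042 (edgeR adjusted p = 0.0139). It passed with the length trend removed (log2 0.25, edgeR adjusted p = 0.0030), and it did not pass by DESeq2's Wald test (adjusted p = 0.182), nor in any of the 4 fits that left out 1 library.

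The genes whose profile over the 4 libraries was most like that of GABARAPL1 were SLC26A2, CPEB4 and GPAT3. Likeness was the Euclidean distance between log2 CPM values centred per gene, over 11103 other tested genes of at least 5 CPM, and was 0.018, 0.019 and 0.026 for the 3. SLC26A2 stood at 108.3 and 108.0 CPM with PBS and at 128.8 and 119.3 CPM with nanoparticles. CPEB4 stood at 16.5 and 16.4 CPM against 19.8 and 18.3 CPM, and GPAT3 at 94.0 and 97.2 CPM against 113.6 and 106.8 CPM. With 4 libraries many genes have such profiles, and the likeness is a description.

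Counts on genes came to 22252686 and 22456882 with PBS and to 24979081 and 24863313 with nanoparticles, so the treated libraries were deeper. Of the genes listed for lung carcinoma and epithelial cells, KRT8, KRT18 and VIM were abundant, from 14265 counts upward in every library. VIM is not specific to epithelial cells. NKX2-1 had 20 to 23 counts per library, CDH1, EPCAM and KRT19 had at most 9 counts and SFTPC none. KRT18, KRT8 and VIM passed the test, lower with nanoparticles (log2 -0.16, -0.11 and -0.092), and the part of this in the results above was not tested. With the length trend removed KRT18 passed (edgeR adjusted p = 0.0141), while KRT8 and VIM did not (0.123 and 0.174). Markers of leukocytes, endothelial cells, fibroblasts and erythroid cells summed to at most 1.56 CPM in any list and library, with PTPRC at 0 throughout. In GENCODE 29 on GRCh38 GABARAPL1 lies on chromosome 12 from 10212458 to 10223130, ATG7 on chromosome 3 from 11272309 to 11557665 and GABARAP on chromosome 17 from 7240014 to 7242770.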

How the data were processed

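Each deposited file holds raw counts of reads on Ensembl genes for 1 library, as the authors made them. GRCh38 is the build in the submitters' processing notes, which list STAR 2.7.6a and HTSeq 2.0.2, Picard, cutadapt 3.5 and bcl2fastq 2.20; annotation release, overlap mode and strand setting: not given in the sources used here. Per the labels' protocols, 300 ng of total RNA entered a stranded kit. Rows naming no gene were left out. They held 14.8% and 14.5% of reads with PBS and 14.3% and 13.7% with nanoparticles. Symbols came from a gene name table for 61369 of 61541 rows.

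The 2 groups were compared with edgeR 4.0.16 (filterByExpr, TMM, glmQLFit, glmQLFTest; R 4.3.3), two-sided, Benjamini-Hochberg threshold 0.05. Standard errors come from the fold change and its F statistic. The common coefficient of variation was 2.46%. Depth limits low genes such as TFEB. Alternatives were RLE, upper-quartile and total-count scaling, no filter, a minimum mean of 50 counts, limma-voom (limma 3.58.1), DESeq2 1.42.0, a replicate block, leaving out each library, and removal of trends with length alone or with length and GC content (robust spline, 4 degrees of freedom, over genes above 5 CPM). Lengths are of GENCODE 29 principal transcripts. The chi-square per degree of freedom between replicates was 1.78 (PBS) and 1.95 (nanoparticle), so none was treated as a copy. On simulated counts for nanoparticle against PBS (15575 genes), 58% of 1.2-fold and 98% of 1.5-fold changes were recovered. Every simulated gene had the common coefficient of variation, without a length trend. Changes were placed only in genes with more counts than TFEB or MAP1LC3B2, so these rates do not cover such low genes.

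Members, lists and alternatives were chosen with earlier results of these data known. Named genes are the 10 members, SQSTM1, MAP1LC3B2, GABARAPL3, up to 4 genes that passed in each list or else the one with the smallest p, and the 3 profiles nearest to the member with the smallest p. Coding sequences were aligned with Biopython 1.88, and figures drawn with matplotlib 3.10.9. One item that the marker lists cover is not reported here.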

Additional observations from a re-analysis of the deposited data

How the results depend on the processing

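Across all genes 407 passed in the reported test. The number was 0 with no filter on low counts (2297 genes at an unadjusted p under 0.05), 90 by DESeq2, 759 with the replicate block, 215 with the length trend removed, 262 with length and GC trends removed, and between 0 and 200 when 1 library was left out. Upper-quartile scaling moved the split from 276 higher and 131 lower to 223 and 190. Of the 10 core genes 1 passed in the reported test. The count was 2, GABARAPL1 and ATG7, with upper-quartile scaling, a minimum mean of 50 counts, the replicate block, and either trend removal. It was 0 with no filter and by DESeq2 (3 and 2 at an unadjusted p under 0.05), and 0 to 1 without 1 library. For the other pathway genes the count went from 2 to 4 with a minimum mean of 50 counts and with the replicate block, to 1 with the length trend removed, to 0 with no filter and by DESeq2, and to between 0 and 1 without 1 library. The TFEB target count went from 1 to 0 with no filter, by DESeq2 and without any 1 library (0 to 0). The cause of these moves was not tested.

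Log2 fold changes turned sign for 6 genes that did not pass, in fits without 1 library. Their ranges over those fits were -0.070 to 0.0092 for ULK1, -0.014 to 0.070 for ATG5, -0.0028 to 0.030 for GABARAPL2, -0.37 to 0.17 for TFEB, -0.085 to 0.37 for ATG16L2 and -0.016 to 0.15 for VPS33A. ATG5 also had -0.0027 with length and GC trends removed. On union-of-exon lengths 5 of 10 core genes kept their level rank. Same-numbered libraries had a correlation of deviations of 0.035 across 11107 genes, so the numbers were not taken to pair the samples. TFEB and MAP1LC3B2 gave no value at a minimum mean of 50 counts.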
